A study of Cymbopogon flexuosus and Cymbopogon winterianus with 4 samples.

Results

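The contigs described here are abundant in lemongrass leaves and strongly lower in citronella leaves. Contigs are the assembled transcript pieces on which reads were counted, and 292 of the 25576 lemongrass contigs met the rule. The rule asked for 20 CPM (the count as a share of its column total, times 1000000) or more in both lemongrass libraries. It also asked that the lower lemongrass CPM be at least 8 times the higher citronella CPM, and that the citronella libraries together hold more than 3 counts. These contigs were chosen by their measured CPM in the libraries of both species, so their difference between the species is a description and was not tested. Leaf RNA was sequenced from Cymbopogon winterianus (citronella) and Cymbopogon flexuosus (lemongrass), with 2 libraries per species. Plants of both species grew in plots of one experimental field under control conditions with no treatment. The labels name no genotype, age or separate plants, so the spread between the libraries of a species may be technical. The question of the series is how scent production evolved in the genus.

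Citronella and lemongrass are aromatic grasses whose leaves store oils made mostly of monoterpenes. Lemongrass oil is known for citral, and citronella oil for citronellal, geraniol and citronellol. Monoterpenes are built from a shared prenyl precursor made largely in plastids, and the last steps are carried out by terpene synthases and by dehydrogenases and reductases. The files pair no contig with a gene name, a sequence or a coordinate. Contigs are therefore described by ID, no role is given to any of them, and the leaf label could not be checked against marker genes. A count records reads that could be placed on a lemongrass contig, so a lower transcript level in citronella and a poorer placement of citronella reads cannot be told apart. In whole leaves, fewer cells of a type and less RNA per cell cannot be told apart either.

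Together the 292 contigs took 0.125% of the counts in citronella library 1 and 0.125% in citronella library 2. In lemongrass they took 2.55% in library 1 and 2.57% in library 2. Library totals were 9485822 and 4875674 counts in citronella, and 5787640 and 6636226 counts in lemongrass. The median contig of the set stood at 2.74 and 2.87 CPM in the citronella libraries, and at 51.7 and 54.6 CPM in the lemongrass libraries. In counts, these medians were 26 and 14 in citronella against 299 and 362.5 in lemongrass, so the citronella values rest on far fewer reads. The 7886 other contigs with 20 CPM or more in both lemongrass libraries had medians of 54.8 and 49.4 CPM in citronella, and 55.0 and 55.5 CPM in lemongrass. In lemongrass the medians of the 292 contigs were thus close to those of the other contigs that passed the limit on level. By the mean level over the libraries of a species, the median rank of the set among all contigs was 21148 in citronella and 4205 in lemongrass. The best rank of any of them was 5318 in citronella and 49 in lemongrass. Ranks and levels compare a contig with others without correction for contig length.

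**Figure D1:**
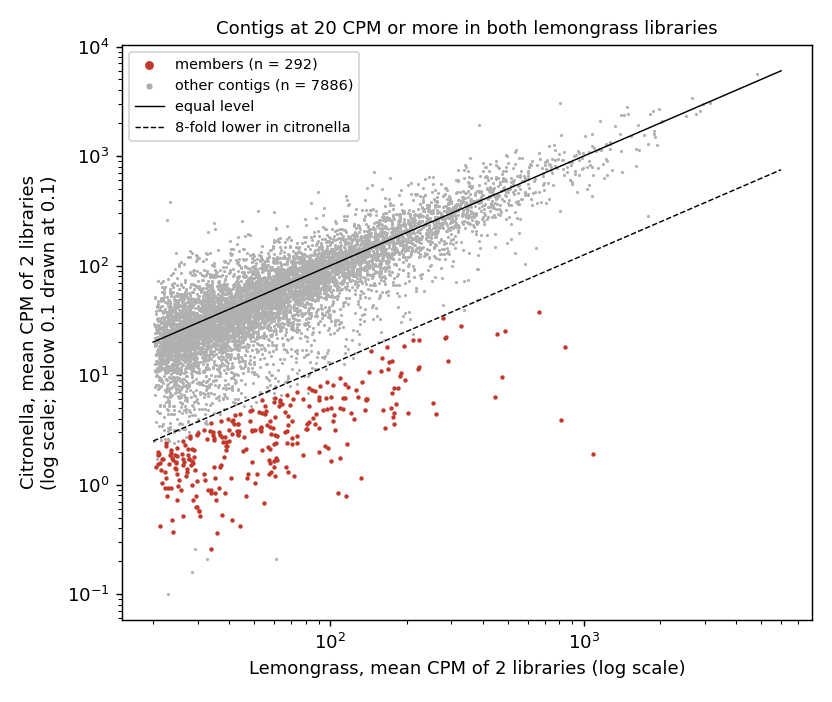
Mean CPM of 2 citronella libraries (vertical, log scale) against mean CPM of 2 lemongrass libraries (horizontal, log scale) for contigs at 20 CPM or more in both lemongrass libraries, with the 292 contigs of the rule in red and the 7886 others in grey. The red points lie under the dashed line of an 8-fold difference because the rule placed them there, and they range over the lemongrass scale up to 1089 CPM.

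The word abundant holds for the set only in a broad sense. Of the 25576 contigs, 8178 had 20 CPM or more in both lemongrass libraries, and 70 of the 292 reached a mean of 100 CPM. The share of contigs that met the rule was 3.57% of the 8178. It was 3.70% (95% exact binomial interval 3.12% to 4.36%) at 20 to 50 CPM, 3.74% (2.997% to 4.61%) at 50 to 100 CPM and 3.94% (2.94% to 5.17%) at 100 to 200 CPM. Above that it was 2.19% (1.25% to 3.53%) at 200 to 500 CPM and 1.95% (0.534% to 4.92%) at 500 CPM or more. The intervals of neighbouring classes overlap, and they take contigs as independent of one another, which they need not be. The median citronella level of the contigs that met the rule was 1.71 CPM in the lowest class, 3.30 and 6.13 CPM in the next classes and 17.1 CPM at 200 to 500 CPM. The 4 contigs of the highest class had a median of 10.99 CPM in citronella.

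**Figure D2:**
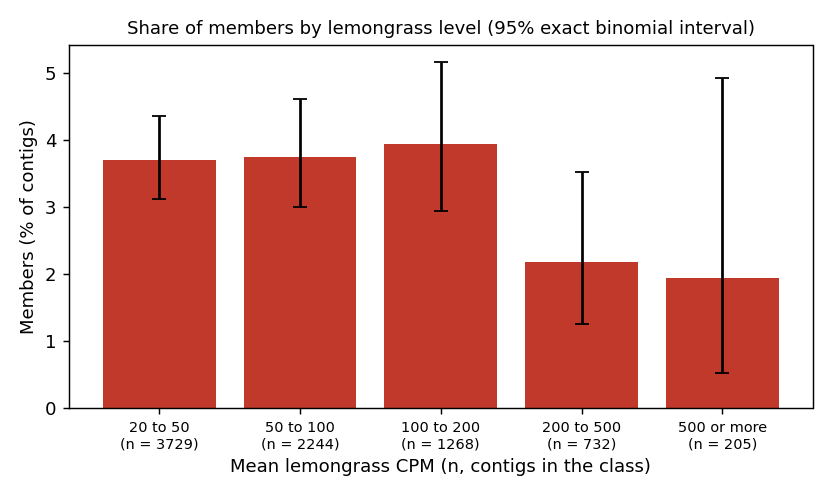
Percentage of contigs that met the rule (vertical) in classes of mean lemongrass CPM (horizontal, with the number of contigs of each class). Bars are shares and whiskers 95% exact binomial intervals, and the shares run from 3.70% in the lowest class to 1.95% in the highest, with overlapping intervals.

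The folds form a continuous tail with no gap at the limit of 8. The fold used here is the lower lemongrass CPM over the higher citronella CPM, so a larger value means lower in citronella. Among the 8178 contigs, 585 lay between 2-fold and 4-fold and 214 between 4-fold and 8-fold, outside the rule. Inside it, 156 lay between 8-fold and 16-fold, 86 between 16-fold and 32-fold and 40 between 32-fold and 64-fold. A further 8 lay between 64-fold and 128-fold, and 2 lay above. The median fold of the set was 15.3. A further 5 contigs met the level and the fold but had 3 or fewer citronella counts, and the rule leaves them out.

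**Figure D3:**
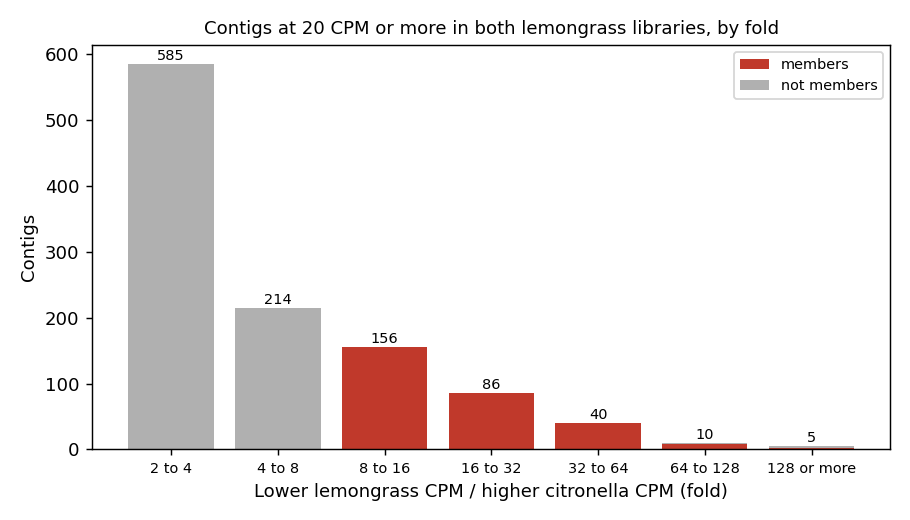
Number of contigs at 20 CPM or more in both lemongrass libraries (vertical) by fold between the lower lemongrass and the higher citronella CPM (horizontal). Counts fall steadily across the limit of 8, with 214 contigs just below it, 156 just above it and 5 contigs at 128 or more.

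Values close to the 3 limits show how little separates inside from outside. At the fold limit, g.contigcf8123 was inside at 8.02-fold, with 5.38 and 3.49 CPM in citronella against 44.6 and 43.1 CPM in lemongrass. Next to it was g.contigcf6413, with 3.37 and 5.95 CPM in citronella against 47.7 and 48.7 CPM in lemongrass. Just outside were g.contigcf4123, at 7.95-fold with 9.91 and 3.90 CPM in citronella against 78.8 and 83.9 CPM in lemongrass, and g.contigcf12940, at 7.94-fold. For g.contigcf4123 the first citronella library alone kept it out. At the level limit, g.contigcf6955 and g.contigcf11701 were inside with 20.04 CPM each in lemongrass library 1, and g.contigcf1450 and g.contigcf6310 were outside with 19.9 and 19.7 CPM in their lower lemongrass library. At the limit on counts, g.contigcf772 had 3 and 1 counts in citronella and g.contigcf3765 had 3 and 2, while g.contigcf2367 and g.contigcf4455 were outside with 2 and 1 counts each.

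The 10 contigs of the set with the highest lemongrass level took 13.8% of its citronella counts and 23.0% of its lemongrass counts. The leading one, g.contigcf1931, had 11 and 13 counts in citronella against 6235 and 7307 counts in lemongrass. These are 1.16 and 2.67 CPM in citronella and 1077 and 1101 CPM in lemongrass. The libraries of the species lie far apart, and among all lemongrass contigs g.contigcf1931 ranked 22590 in citronella and 49 in lemongrass. Its pooled counts were 652-fold lower in citronella (95% exact interval 438 to 1018, for counting error only). Its fitted log2 fold change, citronella minus lemongrass, was -9.30. It was -8.56 without citronella library 1, which held the lower of its citronella CPM values.

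The contig with the next highest lemongrass level differed far less. g.contigcf2089 stood at 16.9 and 19.3 CPM in citronella and at 858 and 825 CPM in lemongrass, a 47.5-fold difference in pooled counts (41.96 to 54.04). The third, g.contigcf1949, had 4.53 and 3.28 CPM in citronella and 810 and 813 CPM in lemongrass, a 198-fold difference (153 to 260). The intervals of these 3 contigs do not overlap. Contigs at nearly the same lemongrass level thus kept very different citronella levels.

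The other 7 leading contigs show the same scatter. g.contigcf2013 kept the highest citronella level of the whole set, with 43.3 and 31.4 CPM in citronella against 647 and 681 CPM in lemongrass. g.contigcf2091 had 27.7 and 22.6 CPM in citronella against 481 and 496 CPM in lemongrass. g.contigcf2040 had 24.6 and 22.6 CPM in citronella against 455 and 451 CPM in lemongrass. These 3 contigs differed 16.9-fold, 18.8-fold and 18.97-fold in pooled counts. A larger difference was seen in g.contigcf2234, with 10.5 and 8.61 CPM in citronella against 471 and 481 CPM in lemongrass. Larger still was that of g.contigcf1999, with 6.43 and 6.15 CPM in citronella against 446 and 450 CPM in lemongrass, which was 70.7-fold (57.5 to 88.0). The smallest difference of the 10 was in g.contigcf2109, with 34.1 and 21.9 CPM in citronella against 337 and 316 CPM in lemongrass, which was 10.9-fold (9.85 to 12.1). g.contigcf2548 had 14.0 and 13.1 CPM in citronella against 294 and 289 CPM in lemongrass.

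**Figure D4:**
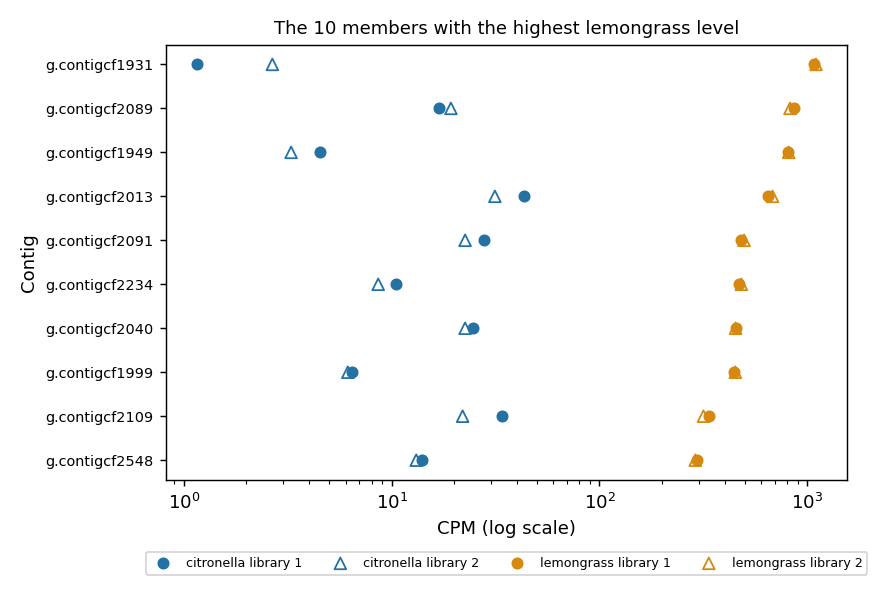
CPM (horizontal, log scale) of the 10 contigs of the set with the highest lemongrass level, with 1 row per contig and 1 point per library. Citronella points spread from 1.16 to 43.3 CPM while the lemongrass points descend from 1101 to 289 CPM, and the points of the 2 libraries of a species lie close together in most rows.

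What was left in citronella ranged from near the detection limit to a well-measured level. In both citronella libraries 21 of the 292 contigs were under 1 CPM, 207 were under 5 CPM and 6 were at 20 CPM or more. A count of 0 allows up to 3 counts, which is 0.316 CPM in citronella library 1 and 0.615 CPM in citronella library 2. Values under 1 CPM therefore rest on a few reads. The 21 contigs under 1 CPM had lemongrass means of 21.3 to 54.5 CPM. The 6 contigs at 20 CPM or more had citronella means of 22.4 to 37.4 CPM and lemongrass means of 279 to 664 CPM. One of the 6 was g.contigcf2423, at 33.3 and 33.2 CPM in citronella against 286 and 272 CPM in lemongrass, close to the fold limit. Across the 292 contigs, citronella and lemongrass means correlated with Spearman's rho of 0.732. This is a description only, since the rule sets a ceiling on the citronella level that moves with the lemongrass level.

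By the lower lemongrass over the higher citronella CPM, g.contigcf1931 (404-fold) and g.contigcf1949 (179-fold) led the set. The next were g.contigcf772 (103-fold) and g.contigcf796 (99.4-fold), which had far lower lemongrass levels. g.contigcf772 had 0.316 and 0.205 CPM in citronella against 35.1 and 32.5 CPM in lemongrass, or 121-fold lower in citronella in pooled counts, with a wide counting interval of 46.9 to 446. g.contigcf796 had 0.633 and 1.03 CPM in citronella against 102 and 113 CPM in lemongrass, a 141-fold difference (78.6 to 283). In pooled counts g.contigcf796 thus stood above g.contigcf772. Their intervals overlap each other and that of g.contigcf1949 (153 to 260), so counting error does not separate these folds. The interval of g.contigcf772 also reaches that of g.contigcf1931 (438 to 1018).

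The libraries of a species were compared within the set, a measure close to but not the same as the one that chose it. The citronella libraries ordered the 292 contigs with Spearman's rho of 0.868, and the lemongrass libraries with rho of 0.984. In citronella, 255 of the 292 had a count above 0 in both libraries and 10 or more in the higher one. The log2 ratio of library 2 over library 1 among these 255 had a median of 0.01, with quartiles of -0.36 and 0.31. In lemongrass the ratio over all 292 had a median of 0.02, with quartiles of -0.07 and 0.11. Over 2-fold apart were 24 of the 255 (9.41%) in citronella and 0 of 292 in lemongrass. Among the other contigs of the same lemongrass level it was 60 of 7881 (0.76%) in citronella and 1 of 7886 in lemongrass. The citronella log2 ratio of those others had a median of -0.11, with quartiles of -0.28 and 0.04. Citronella counts of the set are low and counting noise enlarges ratios there, but its part in this difference was not tested.

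The gap between libraries was also set beside counting noise. The chi-square statistic of a contig, which is about 1 on average where only sampling separates the libraries, had a mean of 1.55 for the set in citronella and 1.80 in lemongrass. At 20 to 49 citronella counts in both libraries together, the mean was 1.42 for 117 contigs of the set and 1.89 for 3157 other lemongrass contigs. At 50 to 99 counts it was 1.38 for 72 contigs of the set and 2.33 for 4347 others, and at 100 to 199 counts 1.15 for 27 and 3.12 for 5120. At 200 or more counts it was 3.62 for 13 contigs of the set and 12.4 for 10667 others, the highest mean of any class in both. The order of the means turned at 4 to 19 counts, with 1.75 for 63 contigs of the set and 1.42 for 1737 others. The median in that class was 0.649 for the set and 0.649 for the others. With 1 library against 1 these values have no replicate check. The rule also drops contigs that are high in only 1 citronella library, which lowers the spread it can hold.

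**Figure D5:**
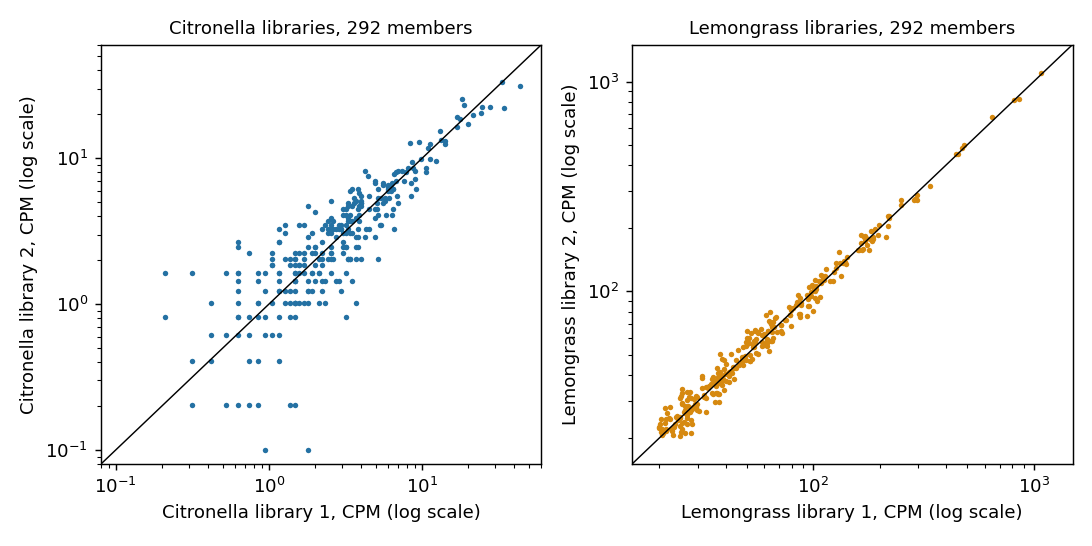
CPM of library 2 (vertical) against library 1 (horizontal) of each species on log scales, with citronella on the left and lemongrass on the right and 1 point for each of the 292 contigs. Values of 0 are drawn at 0.1, the line marks equal CPM, and the citronella points scatter more widely at their low end, with 2 contigs at 0 counts in library 2.

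Among contigs with 10 or more counts in the higher of the libraries compared, those with the widest gaps between citronella libraries had 19 or fewer citronella counts in all. g.contigcf589 had 17 and 0 counts in citronella against 180 and 231 counts in lemongrass. g.contigcf7654 had 14 and 1 counts in citronella against 188 and 233 counts in lemongrass. In both, citronella library 1 was the higher one. The opposite was seen in g.contigcf10255, with 6 and 13 counts in citronella against 145 and 210 counts in lemongrass, and in g.contigcf7738, with 6 and 12 counts in citronella against 118 and 142 counts in lemongrass. Fitted folds of these 4 contigs changed with the citronella library used. The log2 fold change of g.contigcf10255 was -4.34, and it was -3.31 without citronella library 1 and -5.45 without citronella library 2. That of g.contigcf7738 was -3.97, and it was -2.98 and -5.01 without these libraries. For g.contigcf7654 it was -5.01, and -7.13 without citronella library 1. For g.contigcf589 it was -4.81, and -4.19 without citronella library 2. Without library 1 this contig has no citronella count left, so no fold is given. The widest gaps between lemongrass libraries were in g.contigcf7221, with 25.4 and 34.2 CPM, and g.contigcf1524, with 37.7 and 50.5 CPM.

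The number in a contig's ID was not used by the rule. Numbers follow the lemongrass level in part, with Spearman's rho of -0.838 over all 25576 contigs and -0.912 over the 23576 numbered above 2000. The 292 contigs carry numbers from 176 to 12874. Their share was taken among contigs at 20 CPM or more in both lemongrass libraries. In consecutive classes of 2000 numbers they made up 3.87%, 3.804%, 3.75%, 3.58%, 2.91% and 3.12% of such contigs up to number 12000. From there the classes held few such contigs, with 2 of 107 in the set up to number 14000, 0 of 21 up to number 16000 and 0 of 4 up to number 18000.

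Neighbouring numbers were about as common within the set as around it. Another contig of the set stood at the next or the previous number for 18 of the 292, or 6.16% (95% exact binomial interval 3.69% to 9.57%), against 5.73% (5.23% to 6.27%) of the 7886 other contigs of the same level. The 452 of those others that are numbered next to a contig of the set had a median log2 ratio of citronella over lemongrass CPM of -0.17, beside -0.15 for all 7886. The 18 form 9 pairs of consecutive numbers, and the longest run was 2. Within a pair each contig is the neighbour of the other. The interval for the 292 takes contigs as independent and is therefore likely too narrow.

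Within these pairs the values often differed. The pair g.contigcf799 and g.contigcf800 was near in lemongrass level, with 1.69 and 1.85 CPM in citronella against 106 and 113 CPM in lemongrass for the first. For the second the values were 0.843 and 1.44 CPM in citronella against 127 and 137 CPM in lemongrass. Their pooled differences were 63.0-fold (42.5 to 97.7) and 127-fold (76.7 to 227), with overlapping intervals. The pair g.contigcf5427 and g.contigcf5428 was alike in fold, at 9.76-fold and 10.1-fold in pooled counts. In contrast, g.contigcf4666 had 0.738 and 0.820 CPM in citronella against 42.3 and 50.3 CPM in lemongrass. Its partner g.contigcf4667 had 4.01 and 2.05 CPM in citronella against 33.5 and 35.3 CPM in lemongrass. Their pooled differences were 60.8-fold (33.8 to 123) and 10.3-fold (7.64 to 14.2), and the intervals do not overlap. g.contigcf1773 had a lemongrass mean of 184 CPM and g.contigcf1774 one of 22.4 CPM. In g.contigcf2871 citronella library 2, at 4.72 CPM, was above library 1, at 1.79 CPM, and its log2 fold change of -5.82 was -5.01 without library 1 and -6.50 without library 2. Its partner g.contigcf2872 had 1.48 and 2.26 CPM in citronella against 78.4 and 77.2 CPM in lemongrass. The remaining pairs were g.contigcf925 with g.contigcf926, g.contigcf4384 with g.contigcf4385, g.contigcf4708 with g.contigcf4709, and g.contigcf6299 with g.contigcf6300. Their citronella means ran from 0.677 CPM in g.contigcf926 to 6.08 CPM in g.contigcf4708, and their lemongrass means from 34.7 CPM in g.contigcf6300 to 102 CPM in g.contigcf925.

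The species were also compared by edgeR's quasi-likelihood test over all 25107 contigs that passed its filter on low counts. All 292 contigs passed that filter, which their lemongrass counts alone were enough for. All 292 were called lower in citronella, where 27.6% of all tested contigs were called lower and 54.8% were called in either direction. For 40.1% of the tested contigs both citronella libraries lay below both lemongrass libraries, which the rule required of all 292. These counts follow from the rule and nothing is read from them. The median log2 fold change of the set was -4.22, with quartiles of -4.92 and -3.67 and a range from -9.30 to -3.05. Over all tested contigs the median was near 0, at -0.005, and 4.13% had a fitted log2 fold change of -3 or lower.

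The same rule was applied with the species exchanged and to the 42250 citronella contigs, on which the same 4 libraries were counted. On lemongrass contigs, 22 met the rule with citronella high and lemongrass low, or 0.284% of 7753 contigs at 20 CPM or more in both citronella libraries. That number was 82 without citronella library 1 and 54 without lemongrass library 1. Leaving out a library can only ease the limits on level and fold, so some rise here and below is built in. Why the rise was larger without some libraries than without others was not tested. On citronella contigs, 448 met it with citronella high and lemongrass low, or 5.23% of 8560 contigs. With lemongrass high and citronella low it was 54, or 0.652% of 8287 contigs, and 121 without citronella library 1. Citronella library 1 stood apart on citronella contigs, where its highest count was 5782, against 33170 in citronella library 2. Its total there was 6222870 counts, against 9485822 on lemongrass contigs, where its highest count was 54631. Totals of the other libraries were closer on citronella and lemongrass contigs. They were 5132053 and 4875674 in citronella library 2, 5540867 and 5787640 in lemongrass library 1, and 6369924 and 6636226 in lemongrass library 2. What lies behind this was not tested. Without citronella library 1, the citronella contigs with citronella high numbered 506. On each contig set, more contigs thus met the rule with the species of the contig prefix high than with the other species high, with and without citronella library 1, and this difference was not tested. Contigs of the sets could not be matched by ID, so whether transcripts of the 292 have a counterpart among citronella contigs was not tested.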

How the data were processed

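The authors deposited 2 tables of whole-number counts per contig, each with a column for every library per the file headers. Columns were matched to samples by library name. RNA was sequenced as paired ends with an Illumina TruSeq kit, per the labels' protocols. Tools listed in the submitters' processing notes, without their roles, are Trimmomatic 0.32, FastQC 0.11.2, HTSeq, HISAT2, SAMtools and edgeR. How the contigs were made and how reads fitting several contigs were handled are details not given in the sources used here, so reads of near-identical contigs could be split or lost.

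CPM were computed from deposited counts and column totals. All lemongrass contigs were fitted with edgeR 4.0.16 in R 4.3.3 (filterByExpr, TMM scaling, glmQLFit, glmQLFTest, Benjamini-Hochberg adjustment, calls at an adjusted p below 0.05). The fit was tested on simulated data. DESeq2 1.42.0, limma-voom (limma 3.58.1), other scalings, no filter, a replicate block and leaving out each library were alternatives. Exact intervals (95%) and floors of 3 counts cover counting error only.

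The rule and the named contigs were chosen with earlier results of these data known. Of the 48 contigs named by a fixed rule, 42 met all 3 limits on level, fold and citronella counts. They are the 10 with the highest lemongrass level, the 4 largest folds, the 2 nearest each limit on either side, the widest gaps between libraries, consecutive contig numbers and the 3 highest in citronella. No sequences or gene names were used here.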

Additional observations from a re-analysis of the deposited data

How the results depend on the processing

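The number of contigs that met the rule was 292. With other limits it was 506 at a fold of 4, 136 at a fold of 16, 440 at 10 CPM and 146 at 50 CPM, and these follow from the limits. With TMM-scaled CPM it was 276, all among the 292, and with DESeq2 size factors 273, of which 272 were. Leaving out 1 library gave 309 to 327. This can only ease the limits on level and fold, so the rise is largely built in. The 13754 calls over all contigs became 10188 with DESeq2, 12968 with the replicate block, and 10244 to 13722 without 1 library. All 292 contigs kept their call, lower in citronella, under every alternative fit, the replicate block included, which the way they were chosen makes likely. The replicate numbers are only numbers in the titles: deviations of same-numbered libraries correlated at -0.093 across 24806 contigs. The median log2 fold change of the set was -4.14 with upper-quartile scaling, where the median of all contigs was 0.075, and -4.29 to -4.08 without 1 library. Without the most abundant contig the set took 0.12451% of the counts in citronella and 2.45% in lemongrass. A neighbour within 2, 5 and 10 contig numbers was found for 13.36%, 23.97% and 41.44% of the set, against 11.1%, 25.3% and 44.2% of other contigs of that level. All 48 named contigs kept direction and side of the threshold in each of the 11 alternative fits, which the way they were chosen also makes likely. Added after seeing the data, the species-exchanged rule without 1 library gave 30 to 82 lemongrass contigs and 380 to 630 citronella contigs. The rule itself gave 59 to 121 citronella contigs. Here too, leaving out a library can only ease the limits on level and fold. Leaving out a library of the lower species can only tighten the limit on counts. The 380 citronella contigs are thus fewer than the 448 with all libraries. The fewer reads in citronella limit single folds, since contigs of the set had a median of 26 and 14 counts there.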
